A study of Schmidtea mediterranea with 177 samples.

Results

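The genes *ndk*, *fz5/8-4* and *wntA* were followed as a set in single cells of the planarian *Schmidtea mediterranea*. They were taken by name as the rows dd_Smed_v4_11285_0_1 (*ndk*), dd_Smed_v4_11823_0_1 (*fz5/8-4*) and dd_Smed_v4_4877_0_1 (*wntA*), which are 3 of 26560 transcripts in the table of counts. The study sequenced 177 cells from 10 adjacent regions along the anteroposterior (AP) axis, numbered from the most anterior (1) to the most posterior (10), to find genes with regional expression in muscle. Of these, 115 were labelled muscle and 62 non-muscle, and region 2 held muscle cells only. All cells came from unmanipulated animals of the asexual strain CIW4, starved for 7 to 14 days, so no group carried a mutation or a treatment. Only midline tissue was kept, the pharynx was discarded from regions 5 and 6, and Hoechst-stained 2N cells were sorted from the suspension of each region. Libraries were chosen for sequencing by a qRT-PCR screen for muscle markers, so the non-muscle cells are those that came through that screen and are no random sample of other cell types. No label names an animal or a dissection, so cells of a region may share an animal and the region was taken as the sample.

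Wnt ligands are secreted proteins that bind Frizzled receptors at the cell surface, and in planarians Wnt signalling sets regional identity along the AP axis. Planarian muscle is proposed to carry positional information, since muscle cells express ligands, receptors and inhibitors in regional patterns. The *ndk* gene (*nou darake*) encodes an FGF receptor-like (FGFRL) protein, with an extracellular part like that of FGF receptors and no intracellular kinase domain. *fz5/8-4* encodes a Frizzled receptor and *wntA* a Wnt ligand. Loss of *ndk* or of *wntA* in planarians expands brain tissue toward the posterior.

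The inner primers of the study's nested qRT-PCR assays are shown because they state which stretch of each gene was taken as its identity at the bench, and all are written 5′ to 3′. Their places on the counted contigs were not determined here.
ndk forward: agcccgtcacgagtgaagac
ndk reverse: ctcttgagatgaatcaatgacttcgaca
fz5/8-4 forward: ccggtggagtagcgaattgt
fz5/8-4 reverse: gcaacaaagcacagcccata
wntA forward: catgttggaagacaagcggtga
wntA reverse: aggtagagctcgaatgcacgt
The identity of the counted rows differed in how firm it was. In the study's annotation, the *ndk* row matched a human FGFRL protein and the *fz5/8-4* row a human Frizzled. The *wntA* row carried a Wnt domain together with CBS domains, and its best human match was an AMP-activated kinase subunit. Reads of the ligand and of this second sequence cannot be told apart in the counts, and every *wntA* value below carries that limit.

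Depth ran between 19205 and 3884642 reads per cell, with a median of 273089. The study gave the muscle label from these same counts, by principal components and *troponin* expression. A main component separated muscle from the epidermal lineage, so levels of such markers by class are no check of the label. Levels of 10 muscle transcripts (troponin, collagens, myosin, filamin and calponin matches) were summed as cpm (reads per 1000000 reads of the cell). The median was 15376 cpm in the muscle class, against 159 cpm in the non-muscle class. The ranges overlapped, at 781 to 95184 cpm in muscle cells against 4.86 to 10867 cpm in non-muscle cells, and 4 non-muscle cells, from regions 4, 5 and 7, exceeded 3000 cpm. Markers of dividing stem cells (neoblasts) were also present in cells labelled muscle. There *smedwi-1* had more than 2 reads in 87 of 115 cells, against 28 of 62 non-muscle cells. A *bruno*-like transcript was in 67 of 115 against 29 of 62, and *khd-1* in 113 of 115 against 61 of 62. A cell was counted as having a transcript when it held more than 2 of its reads, and intervals on shares are exact 95% Clopper-Pearson intervals that cover counting error only.

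Over all cells, *ndk* was found in 32 of 177, *fz5/8-4* in 44 and *wntA* in 120. The first was concentrated in region 1, the second was strongest there with scattered cells elsewhere, and the third was found along the whole axis.

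**Figure D1:**
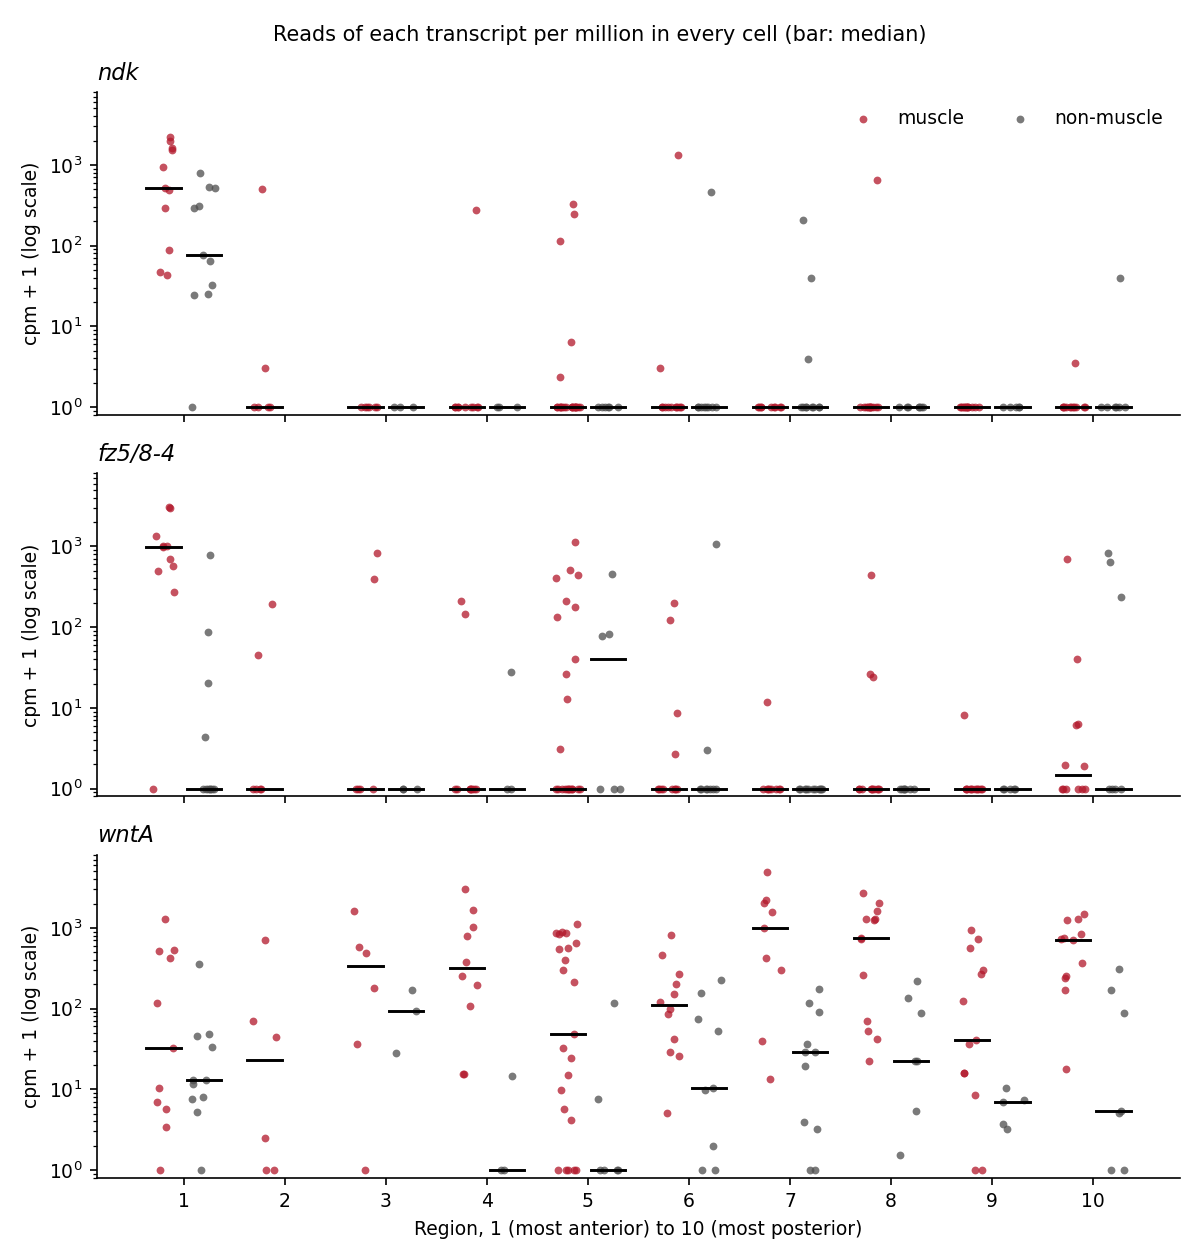
Level of *ndk*, *fz5/8-4* and *wntA* in each of 177 cells (cpm + 1, log scale) against the region, with muscle cells in red at the left and non-muscle cells in grey at the right of each region. Bars are medians; for *ndk* the median is above 0 in region 1 alone in both classes, whereas for *wntA* it is above 0 in all 10 muscle regions.

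All 11 muscle cells of region 1 had *ndk*, a share of 100% (71.5 to 100%). The lowest held 41.9 cpm, the median cell 522.1 cpm and the highest 2212 cpm, so the cells of this single region ranged widely. In regions 2 to 10, 8 of 104 muscle cells had *ndk*, or 7.69% (3.38 to 14.6%), and the median cell held 0 cpm.

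Those 8 cells were in region 2 (1 of 6), region 4 (1 of 10), region 5 (4 of 23), region 6 (1 of 12) and region 8 (1 of 13). Regions 3, 7, 9 and 10 had none; with a floor of 3 cells in place of the interval, their 6, 9, 13 and 12 muscle cells allow shares of up to 50%, 33.3%, 23.1% and 25%. A single cell could nevertheless be high, since the region 6 cell held 1308 cpm and the region 8 cell 644 cpm, both within the range of region 1. The region 6 cell supplied 99.9% of the *ndk* reads of its region.

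As cpm of the summed reads, *ndk* reached 944 in region 1 muscle, against 46.9 in muscle of regions 2 to 10 together, a ratio of 20.2. Without the region 6 cell the level of regions 2 to 10 was 21.1 cpm. Against regions 7 to 9, at 54.1 cpm, the ratio was 17.4, or 48.0 by the mean cpm over cells, and all of those reads came from the 1 cell of region 8. Region 1 is a single sample, so this difference has no replicate error and no test.

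Non-muscle cells of the head also had *ndk*. Of the 11 in region 1, 9 had it (81.8%, 48.2 to 97.7%), with a lowest value of 0, a median of 76.4 and a highest of 797 cpm. In regions 3 to 10, 4 of 51 had it (7.84%, 2.18 to 18.9%). The summed level was 253 cpm in region 1 and 5.05 cpm in regions 3 to 10, and within region 1 the muscle level was 3.73 times the non-muscle one, with overlapping cells.

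The receptor *fz5/8-4* was present in 10 of 11 muscle cells of region 1 (90.9%, 58.7 to 99.8%). The lowest cell held 0, the median 991 and the highest 3066 cpm. In regions 2 to 10 it was found in 24 of 104 muscle cells (23.1%, 15.4 to 32.4%).

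These 24 cells did not thin out steadily toward the tail. Region 5 had 9 of 23, regions 2 and 3 had 2 of 6 each, region 4 had 2 of 10, regions 6 and 10 had 3 of 12 each and region 8 had 3 of 13, while regions 7 (9 cells) and 9 (13 cells) had none. The highest cell of region 5 held 1138 cpm and that of region 3 held 827 cpm.

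The summed level of *fz5/8-4* was 1054 cpm in region 1 muscle, against 5.39 cpm in regions 7 to 9, a ratio of 196. By the mean cpm over cells the ratio was 78.6, and without the cell with the most reads regions 7 to 9 had 2.41 cpm. The prepharyngeal regions 2 to 4 had 97.6 cpm, against 164 cpm in region 10. That order rests on 1 cell: 99.0% of the region 10 reads came from the deepest library of the series, and without it region 10 had 2.06 cpm.

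Among non-muscle cells, region 1 had *fz5/8-4* in 3 of 11 (27.3%, 6.02 to 61.0%), and regions 3 to 10 in 7 of 51 (13.7%, 5.70 to 26.3%). The summed level was 56.4 cpm in region 1, against 391.3 cpm in the 7 cells of region 10, the highest of the non-muscle regions. In region 1 the muscle level, 1054 cpm, was 18.7 times the non-muscle level, of which 1 cell supplied 92% of the reads. Without that cell the non-muscle level of region 1 was 4.84 cpm. Of the 7 cells of regions 3 to 10, 1 in region 5 was among those with high muscle markers.

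**Figure D2:**
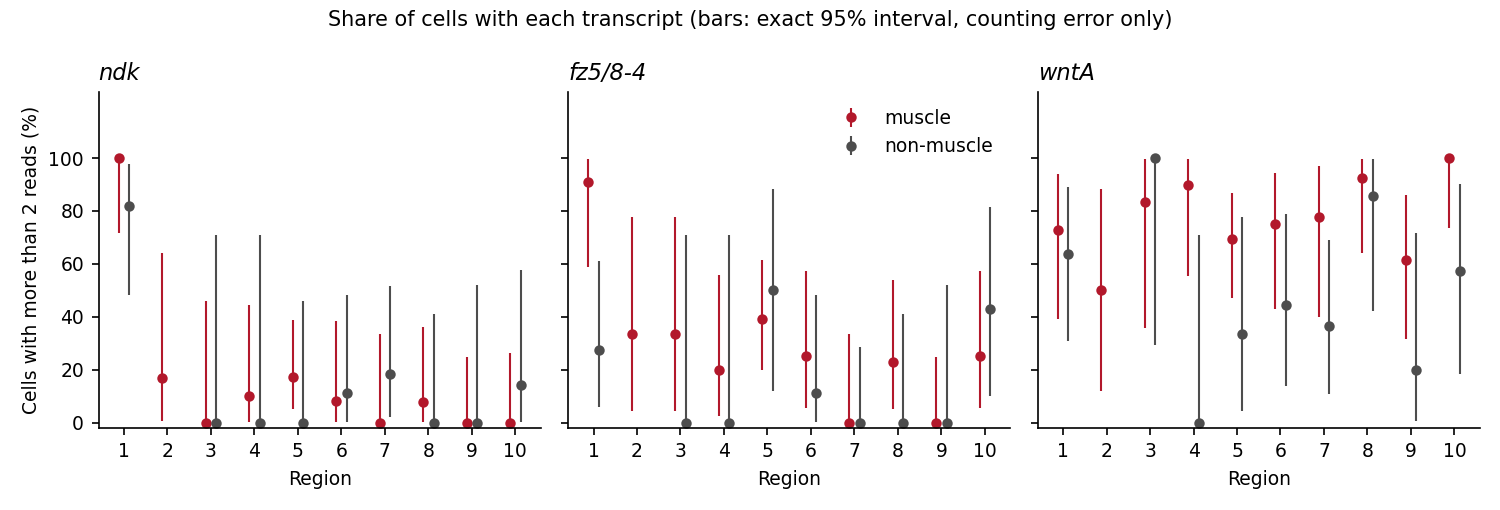
Share of cells with more than 2 reads of *ndk*, *fz5/8-4* and *wntA* (%) in each region, muscle in red and non-muscle in grey, with exact 95% intervals for counting error. The *ndk* shares are 100% of muscle and 81.8% of non-muscle cells in region 1 and at most 18.2% elsewhere, while *wntA* is in at least 50% of the muscle cells of each region.

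The ligand *wntA* was the most widespread of the set, in 89 of 115 muscle cells and 31 of 62 non-muscle cells (50%, 37.0 to 63.0%). The share in muscle was between 50% in region 2 and 100% in region 10. Region 10 muscle cells were also the deepest, at a median of 1238250 reads, against 259378 over all muscle cells, so the regional shares compare unlike depths. The summed level separated the regions more than the share did.

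From region 1 to region 10, the summed *wntA* level in muscle was 269, 180, 406, 561.2, 324, 263, 1595, 1419, 194 and 612 cpm. Regions 7 and 8, just behind the pharynx regions, were the highest and regions 9 and 2 the lowest. The region 2 sum rests on 1 cell, without which it was 15.2 cpm. The cells of neighbouring regions in that order overlapped: region 7 cells held 12.6 to 4922 cpm with a median of 997, region 8 cells 21.3 to 2697 with a median of 754, and region 10 cells 17.03 to 1466 with a median of 711.

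In region 1 the *wntA* level was uneven between muscle cells. The 4 highest held between 426.3 and 1294 cpm, and the next cell held 115 cpm. The remaining cells ran down to 0.

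Non-muscle cells had much less *wntA*. Their summed level was between 1.90 cpm (region 4) and 76.7 cpm (region 10), against 180 to 1595 cpm in muscle, and it was lower than in muscle in each of the 9 regions with both classes. The ratio of muscle over non-muscle ranged between 3.68 in region 6 and 64.5 in region 9 among the 8 regions with over 3 non-muscle reads.

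This class difference was tested on the sums of reads per region with the region as a block. Muscle was higher in *wntA* by 3.90 on the log2 scale (SE 0.66, edgeR quasi-likelihood adjusted p = 0.00037, 9 regions). The test itself gives no SE. Each SE here and below is the absolute log2 estimate divided by the square root of the test's F statistic. Over all 15672 transcripts tested, 6.44% were called in this comparison. *ndk* (log2 difference 3.86, SE 2.41, edgeR adjusted p = 0.459) and *fz5/8-4* (2.93, SE 1.32, edgeR adjusted p = 0.224) did not pass. Leaving out the 4 non-muscle cells with high muscle markers, an alternative added after seeing the data, gave 4.08 for *wntA* (edgeR adjusted p = 0.00144).

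The same regional sums were fitted for a steady change with the region number. None of the 3 passed in muscle, where 0.0147% of 13570 transcripts were called. The slopes were −0.52 for *ndk* (SE 0.34, edgeR adjusted p = 1.00), −0.31 for *fz5/8-4* (SE 0.16, edgeR adjusted p = 1.00) and 0.26 for *wntA* (SE 0.10, edgeR adjusted p = 0.709) on the log2 scale per region, a negative slope meaning a higher level toward the head.

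The slopes of *ndk* and *fz5/8-4* depended on single regions. Without region 1 the *ndk* slope was 0.09, of the opposite sign. Without region 10, whose *fz5/8-4* reads came almost wholly from 1 cell, the *fz5/8-4* slope was −1.02 (edgeR adjusted p = 0.0321). The fit without region 10 called 30 of 13569 transcripts, against 2 with all regions. The labels number the cells but name no batch. Splitting each region's sum by 3 ranges of those numbers, with limits set for this purpose, gave 20 sums in place of 10, and with the range also a covariate the *ndk* slope was −1.43 (edgeR adjusted p = 0.0393). That fit called 15 of 13570 transcripts. The split and the covariate were not tried apart. Sums from the same region counted as separate samples in that fit, although the region is the sample elsewhere, so its adjusted p may be too small.

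Regions 1 to 3 were then set against regions 8 to 10 in muscle, 3 sums against 3. Here 0.0296% of 13504 transcripts were called and no member was. *ndk* differed by 3.08 (SE 3.71, edgeR adjusted p = 1.00), *fz5/8-4* by 2.74 (SE 1.79, edgeR adjusted p = 0.948) and *wntA* by −1.64 (SE 0.64, edgeR adjusted p = 0.728) on the log2 scale. Without region 10 the *fz5/8-4* difference was 6.24 (edgeR adjusted p = 0.00405), and without region 1 that of *ndk* was −1.98. The fit without region 10 called 33 of 13332 transcripts, against 4 with all regions.

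In non-muscle cells, where 0.0375% of transcripts were called for a slope, none of the members passed. Their slopes were −0.48 for *ndk* (SE 0.27, edgeR adjusted p = 0.784), 0.28 for *fz5/8-4* (SE 0.27, edgeR adjusted p = 1.00) and 0.02 for *wntA* (SE 0.22, edgeR adjusted p = 1.00). The test of muscle against non-muscle slopes called 0% of 15672 transcripts, with 1237 at an unadjusted p under 0.05 and 608 called by DESeq2, so a different course in the classes was not shown for any of the 3. The difference in slope was −0.03 for *ndk*, −0.57 for *fz5/8-4* and 0.24 for *wntA*.

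**Figure D3:**
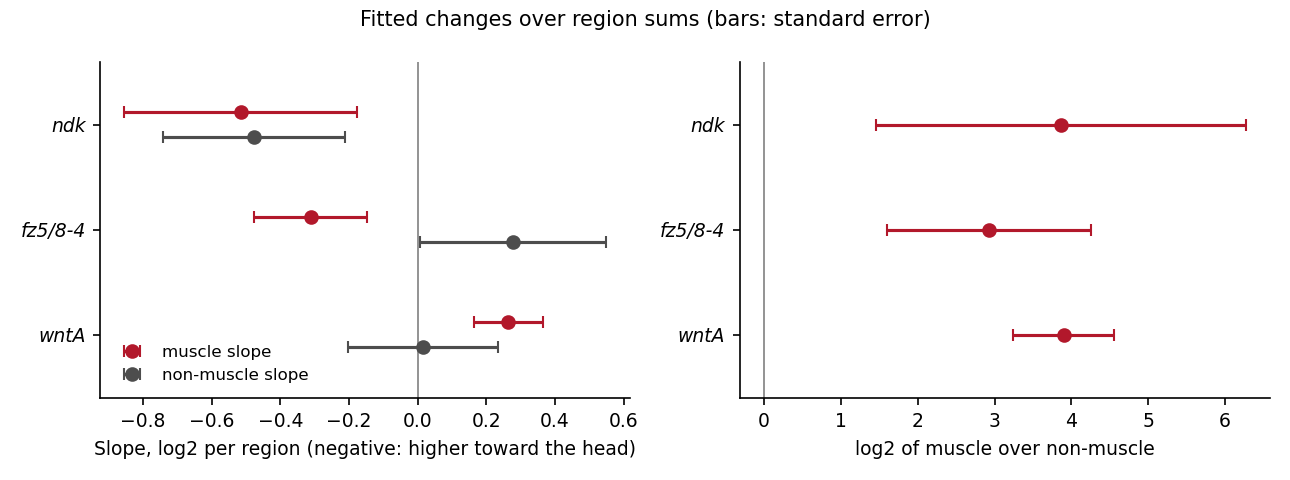
Left, fitted slope on the region number (log2 per region) in muscle (red) and non-muscle (grey). Right, fitted muscle over non-muscle difference (log2) with the region as a block. Bars are 1 SE, derived from the F statistic of each test. The *wntA* class difference of 3.90 is the value past the threshold, and the slopes of *ndk* are negative in both classes.

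Co-expression was read in single cells, as a description with no test. In region 1 muscle, 10 of 11 cells had both *ndk* and *fz5/8-4*, and 8 had *ndk* and *wntA*. All 11 had *ndk*, so these pair counts repeat the counts of *fz5/8-4* and *wntA* alone. All 3 were found in 8 cells (72.7%, 39.0 to 94.0%). *wntA* was in 8 of these 11 cells and in 81 of 104 muscle cells of regions 2 to 10. With 1 read of each as the limit 10 of 11 had all 3, requiring 10 reads of each left 4 of 11, and thinning every cell to 50000 reads left 5 of 11.

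The 4 cells highest in *ndk*, at 1516 cpm and above, were the 4 highest in *wntA*, and 3 of them were among the 4 highest in *fz5/8-4*. Spearman's rho was 0.78 for *ndk* with *wntA*, 0.69 for *fz5/8-4* with *wntA* and 0.47 for *ndk* with *fz5/8-4*, over the 11 cells of this region, which differ in depth. As Pearson's r of log2(cpm + 1) these were 0.73, 0.63 and 0.053, so for *ndk* with *fz5/8-4* the relation depends on the measure.

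**Figure D4:**
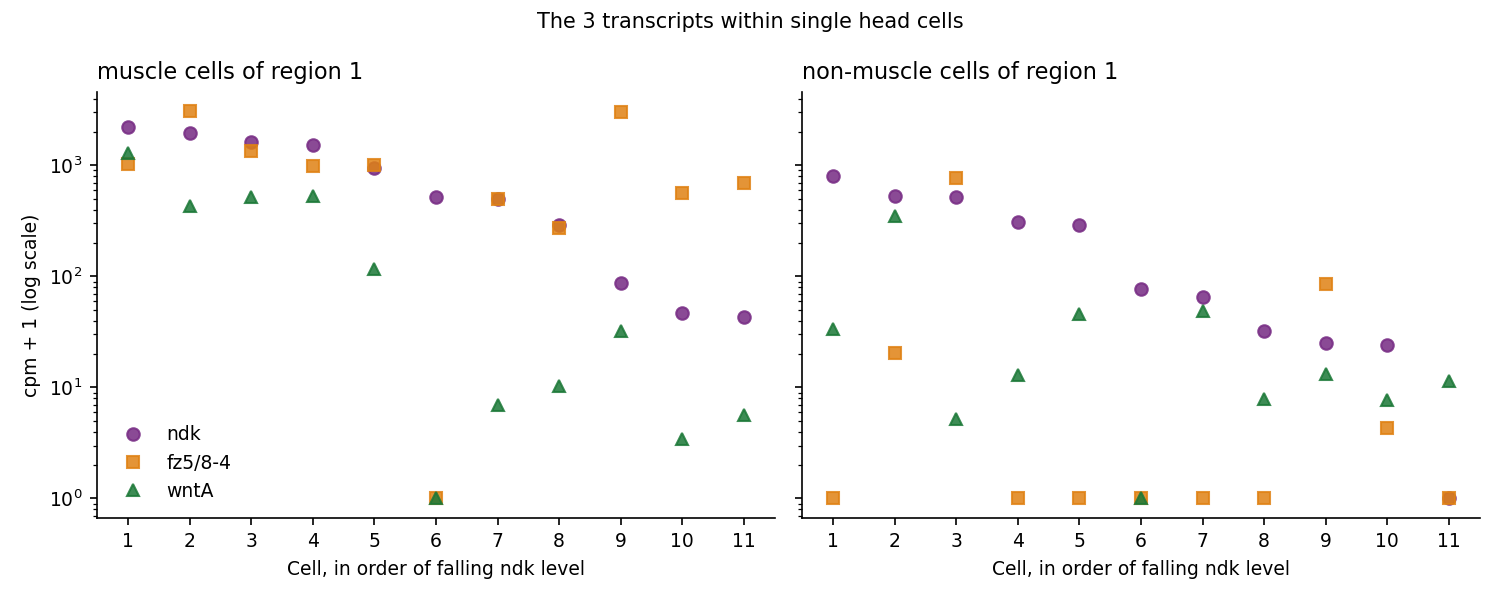
Levels of *ndk* (circles), *fz5/8-4* (squares) and *wntA* (triangles) in single cells of region 1 (cpm + 1, log scale), 11 muscle cells at the left and 11 non-muscle cells at the right, ordered by falling *ndk*. The 4 muscle cells highest in *ndk* hold 426.3 cpm or more of *wntA*; in most non-muscle cells *ndk* stands without *fz5/8-4*.

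Of the 9 head non-muscle cells with *ndk*, 2 also had *fz5/8-4* and 6 had *wntA*, and 1 of 11 cells had all 3. Other members of the same families were present too. Among cells with *ndk*, *ndl-4*, another FGFRL gene, was in 9 of 11 head muscle cells, against 9 of 9 head non-muscle cells. *fz5/8-3*, a further receptor of the same Frizzled class, was in 3 of 11 head muscle cells, against 8 of 9 head non-muscle cells. All 11 head non-muscle cells carried epidermal lineage markers (*zfp-1*, *p53* and a villin match). These summed to 0 to 12.8 cpm in head muscle cells, against 245 to 2716 cpm in head non-muscle cells, a contrast that the class label itself drew on.

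Outside region 1, 5 of the 8 muscle cells with *ndk* also had *fz5/8-4* (62.5%, 24.5 to 91.5%), against 19 of the 96 without *ndk* (19.8%, 12.4 to 29.2%). The 8 and the 96 cells were not matched for region. In region 5 all 4 cells with *ndk* had *fz5/8-4*, which was present in 9 of all 23 muscle cells of that region. For *wntA* the shares were 5 of 8 with *ndk*, against 76 of 96 without, and 15 of 24 with *fz5/8-4*, against 66 of 80 without. All 3 were found together in 2 of 104 of these cells, both in region 5.

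Other reads were also compared in the muscle cells with *ndk* behind the head. Prohormone convertase 2 (*PC-2*), a marker of neurons, had more than 2 reads in 6 of these 8 cells (75%, 34.9 to 96.8%), against 18 of 96 without *ndk* (18.8%, 11.5 to 28.0%). These groups were not matched for region. In region 5 *PC-2* was in all 4 cells with *ndk*, against 5 of 19 without (26.3%, 9.15 to 51.2%). In head muscle it was found in 1 of 11. The neoblast markers summed to a median of 3521 cpm in the 8 cells and 1413 cpm in the 96, with overlapping ranges. *khd-1*, found in nearly all cells of both classes, is part of this sum. The muscle markers summed to a median of 9452 cpm in the 8 cells and 15689 cpm in the 96, also with overlap. Median depth was 523264 reads in the 8 cells and 240033 in the 96, and the part of any of these in the *ndk* reads was not tested.

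The other FGFRL genes, and the Wnt pathway genes of the study's list of regionally expressed muscle genes, were read from the same fits. That list was drawn from these same muscle cells, so it favours regional genes expressed in muscle. All 5 other FGFRL genes had negative slopes in muscle, and 1 of 5 passed, where 0.0147% of all transcripts were called. That gene, *ndl-2*, fell by 1.75 on the log2 scale per region (SE 0.24, edgeR adjusted p = 0.00587). Its call was lost without region 1 (slope −1.73, edgeR adjusted p = 0.319) and with limma (slope −1.09, limma adjusted p = 0.132). The median slope of the 5 was −1.05, against 0.03 over all transcripts tested. In region 1 muscle *ndl-4* reached 703 cpm, *ndl-2* 500 cpm, *ndl-1* 168 cpm and *ndl-5* 114 cpm, while *ndl-3* had 42.3 cpm there, all from 1 cell, and 763 cpm in region 4.

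Of the 5 other Wnt ligands on that list, none passed for a slope. All 5 were higher in muscle than in non-muscle cells, where 6.44% of all transcripts were called in either direction. A list drawn from muscle favours such a result, and Wnt pathway genes off the list were not examined. The differences were between 7.19 (*wnt1*) and 9.24 (*wntP-2*) on the log2 scale, with edgeR adjusted p between 0.0474 and 6.2e-05. Reads of *wnt2*, *wntP-2* and *wnt11-2* were near or at 0 in non-muscle cells, so the fitted sizes depend on the prior count and are no bounds. The calls of *wnt1*, *wnt2*, *wnt11-1* and *wnt11-2* were lost under some of the 15 alternatives, with adjusted p of up to 0.505 for *wnt2* under DESeq2, and that of *wntP-2* under none.

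Of the 6 other receptors on the same list, 4 were higher in muscle (*fz4-1*, *fz4-2*, *fz4-3* and *ptk7*, the last a receptor-like protein of Wnt signalling). A slope past the threshold was found in 0 of 6. The call of *fz4-2* was lost with any of regions 6 to 10 left out (edgeR adjusted p up to 0.0863). *fz5/8-3* did not pass, at 1.58 on the log2 scale (SE 2.12, edgeR adjusted p = 0.809). In the head it had 201 cpm in muscle and 396.4 cpm in non-muscle cells. Among the secreted inhibitors, *sFRP-1* was higher in muscle (6.51, SE 1.97, edgeR adjusted p = 0.0486), a call that was lost under several alternatives (edgeR adjusted p = 0.215 without region 1). *notum* had 421.5 cpm in head muscle and 0 cpm in head non-muscle cells, and was not called.

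Profiles over the 10 muscle regions, as the mean of ln(cpm + 1), were compared with 8397 transcripts. The closest to *ndk* was *ndl-4* (Pearson's r = 0.979), followed by dd_Smed_v4_10908_0_1 (0.973) and dd_Smed_v4_12804_0_1 (0.955), with *fz5/8-4* in place 6 (0.934). The closest to *fz5/8-4* were dd_Smed_v4_12804_0_1 (0.966), dd_Smed_v4_11673_0_1 (0.955) and *sFRP-1* (0.953). The closest to *wntA* were dd_Smed_v4_3684_0_1 (0.898), dd_Smed_v4_908_0_1 (0.891) and dd_Smed_v4_1237_0_1 (0.884), and its r was −0.41 with *ndk* and −0.39 with *fz5/8-4*. With Spearman's rho as the measure, none of the 3 closest to each member was again among its 3 closest. These names therefore depend on the measure. The profile of dd_Smed_v4_12804_0_1 was 2.20 in region 1 and 0.36 to 0.76 elsewhere. None of the 6 unnamed transcripts was called for a muscle slope. The slopes were −0.11 for dd_Smed_v4_10908_0_1, 0.04 for dd_Smed_v4_12804_0_1 and −0.01 for dd_Smed_v4_11673_0_1.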

How the data were processed

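The authors deposited raw read counts per transcript and cell, summed over isotigs of the dd_Smed_v4 assembly; the labels name CASAVA 1.7.0, cutadapt and Bowtie, and the study's methods name Bowtie 1. Closer versions of cutadapt and Bowtie are not given in the sources used here. Deposited tables of the authors' own SCDE comparisons (fold changes and scores) were not used. Libraries were made by SmartSeq2 without molecular identifiers. Counts were summed over the cells of each region and class, and transcripts seen at more than 2 reads in 3 cells or more were fitted with edgeR 4.0.16 (robust quasi-likelihood, TMM, Benjamini-Hochberg over all tested; threshold 0.05). No pooled or replicate animals are named, so p-values measure spread between regions. In the fit split by cell number range they also take in spread within regions. DESeq2 1.42.0, limma 3.58.1, other normalizations, no filter, regions left out in turn and thinning to 50000 reads were alternatives. Named genes were the 3 members, the other FGFRL and Wnt pathway genes of the study's list, and the 3 transcripts closest to each member. Members and lists were chosen with earlier results of these data known.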

Additional observations from a re-analysis of the deposited data

Results flagged for a closer look

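In groups of 4 to 10 cells, the highest cell stood apart from the rest (Dixon's test at 95%) in 12 of 20 combinations of gene, class and region in which any cell had a read. The test's rate of about 1 in 20 by chance is for normally distributed values and does not hold for cells mostly at 0, and a group with reads in 1 cell is always picked, so the number of such groups is a description. For *ndk* these cells held 498 cpm (muscle, region 2), 272 cpm (muscle, region 4), 467 cpm (non-muscle, region 6) and 39.2 cpm (non-muscle, region 10), with the next cell at 2.06 cpm in region 2 and at 0 in the others. For *fz5/8-4* they held 194 cpm (muscle, region 2), 10.7 cpm (muscle, region 7), 451.4 cpm (non-muscle, region 5) and 1062 cpm (non-muscle, region 6). The region 5 cell is labelled non-muscle and also carried muscle markers at 9395 cpm and the outlying *wntA* value of its group, 116 cpm. In muscle, the cells standing apart in *wntA* held 702 cpm in region 2, 1593 cpm in region 3 and 4922 cpm in region 7, where the next cell held 2188 cpm.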

How the results depend on the processing

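The number of transcripts called depended on the test and its settings. For the muscle slope it was 2, against 158 with DESeq2, 0 with limma, 1 with library size alone, 7 with no filter, 15 with each region split by cell number range and the range as a covariate (20 sums in place of 10) and 0 to 30 with a region left out. For the non-muscle slope it was 5, against 193, 0, 3 and 79 under the first 4 of these and 0 to 15. For the slope difference it was 0, against 608 with DESeq2, 6 with no filter and 0 to 1 with a region left out. The class difference called 1009, against 1556 with DESeq2 and 724 to 1019 with a region left out, and anterior over posterior called 4, against 217 with DESeq2, 0 with limma, 37 with no filter and 2 to 33. The cause of these shifts was not tested.

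*wntA* stayed higher in muscle under all 15 alternatives of the class difference (3.53 to 4.12, edgeR, DESeq2 or limma adjusted p between 6.9e-09 and 0.00248). With a region left out, the muscle slopes were −0.81 to 0.092 for *ndk* and −1.02 to −0.061 for *fz5/8-4*, and the split by cell number range with its covariate gave −1.43 for *ndk*. The non-muscle slopes were −0.73 to 0.88 for *ndk*, −0.39 to 0.67 for *fz5/8-4* and −0.075 to 0.088 for *wntA*, and limma gave −0.14 for *fz5/8-4* and −0.014 for *wntA*. The *ndk* slope difference was −0.68 to 0.34, and anterior over posterior was −1.98 to 12.0 for *ndk* and 0.93 to 6.24 for *fz5/8-4*. The *wntA* shares moved with the read limit and with thinning. In muscle they were 90.4% at 1 read, 64.3% at 10 reads and 65.5% of the 110 cells that could be thinned. In non-muscle cells they were 79.0%, 30.6% and 29.0%. No paired analysis was possible because the labels give no replicate number shared between groups, and the class difference was paired by region alone, as its main design.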
